A study of Mus musculus with 516 samples.

Results

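Freshly dissociated dorsal root ganglion cells with a high level of Mrgprd are described here as the Mrgprd-high cells. They were chosen by measured values: a naive cell belonged to them when its Mrgprd reads came to 100 CPM or more (the usual CPM scale, a gene's share of all reads of that cell) and its Th reads to under 300 CPM. The rule took 83 of the 306 naive cells, in a series of 516 single cells. It took 32 C57BL/6 cells and left 100 (24.2%, exact Clopper-Pearson 95% interval 17.2 to 32.5), and it took 51 of the CAST/Ei cells (29.3%, 22.7 to 36.7), and the intervals of the strains overlapped.

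The study set sensory neurons of C57BL/6 mice, the common laboratory strain, beside those of the wild-derived strain CAST/Ei, either untreated (naive) or after 48 h in culture as an axotomy in vitro. Naive cells of both strains carried no transgene or agent in the labels, and age, sex and animal are not given. The cells were spun through Percoll, caught one by one on a microfluidic chip and read by sequencing of their polyA RNA. Because no label names an animal or a capture run, each strain counted as 1 sample, nothing was tested, and no p-value was derived from cells.

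Mrgprd encodes a Mas-related receptor coupled to G proteins that answers to beta-alanine. It marks a class of unmyelinated nociceptors whose endings lie in the outer epidermis and whose central fibres end in the superficial dorsal horn. These neurons are called non-peptidergic because they carry little substance P (from Tac1) and less calcitonin gene-related peptide (from Calca) than the peptidergic nociceptors, and they depend on the transcription factor Runx1 and on the receptor Ret in development. Th marks a different class, the low-threshold mechanoreceptors with C fibres.

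Since Mrgprd and Th chose the cells, their levels only describe the choice. Mrgprd ran from 102.2 CPM to 1499 CPM in the Mrgprd-high C57BL/6 cells, with a median of 562, and from 140.5 to 1758 CPM in the CAST/Ei cells, with a median of 832. Just inside the threshold lay C57BL/6 cells at 102.2, 116.6 and 117.96 CPM and just outside it cells at 83.1, 75.96 and 73.05 CPM. In CAST/Ei the nearest cells inside had 140.5, 157.8 and 172.03 CPM and the nearest outside 81.8, 80.2 and 71.4 CPM, so no cell of that strain lay between 81.8 and 140.5 CPM apart from cells set aside for Th. The highest Th level was 75.1 CPM in the C57BL/6 cells and 166.3 CPM in the CAST/Ei cells. The Th limit set aside 2 CAST/Ei cells that passed for Mrgprd, at 347 and 1113 CPM of Th, and no C57BL/6 cell. Of the other naive cells, 49 of 100 in C57BL/6 and 18.7% in CAST/Ei had no Mrgprd read.

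**Figure D1:**
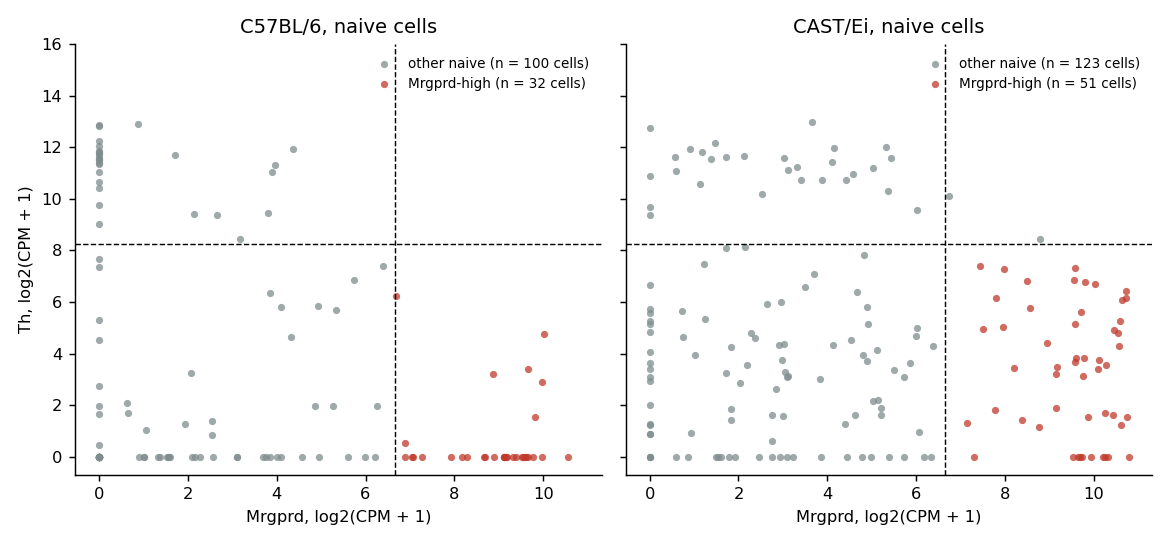
Mrgprd (x axis) against Th (y axis) in each naive cell of C57BL/6 (left) and CAST/Ei (right), both as log2(CPM + 1), with the limits of 100 CPM and 300 CPM as dashed lines. The 32 and 51 Mrgprd-high cells (red) sit in the lower right corner, and 2 CAST/Ei cells lie above both limits.

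The stretch of genome just before the start of Mrgprd is shown beside those of the 2 genes whose level over all naive cells was most like that of Mrgprd, Gm765 and Lpar3. They are given to show whether the core letters bound by Runx factors, TGTGGT on either strand, stand there, since Runx1 is the known regulator of this class. Each line is the 250 bases before the RefSeq gene start (assembly GRCm38.p6, the same sequence as mm10), 5′ to 3′ along the gene's strand, with a match in capitals.
Mrgprd, chr7:145314585-145314834, plus strand: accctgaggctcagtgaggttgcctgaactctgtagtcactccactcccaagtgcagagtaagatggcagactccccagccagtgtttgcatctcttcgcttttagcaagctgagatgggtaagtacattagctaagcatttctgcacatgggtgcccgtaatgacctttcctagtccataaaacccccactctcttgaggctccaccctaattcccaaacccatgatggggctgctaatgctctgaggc
Lpar3, chr3:146220711-146220960, plus strand: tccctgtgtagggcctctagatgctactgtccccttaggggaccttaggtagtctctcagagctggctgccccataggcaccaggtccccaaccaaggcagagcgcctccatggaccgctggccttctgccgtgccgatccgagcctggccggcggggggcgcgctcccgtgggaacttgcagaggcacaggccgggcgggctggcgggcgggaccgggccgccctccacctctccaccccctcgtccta
Gm765, chr6:98342755-98343004, minus strand: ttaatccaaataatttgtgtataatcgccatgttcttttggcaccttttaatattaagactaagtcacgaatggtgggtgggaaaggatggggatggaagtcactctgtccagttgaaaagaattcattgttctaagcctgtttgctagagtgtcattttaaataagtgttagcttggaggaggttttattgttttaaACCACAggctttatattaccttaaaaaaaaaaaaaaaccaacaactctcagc
The letters occurred in the Gm765 window, starting 52 bases before the gene start on the opposite strand, and not in the other 2 windows. Of the 12 named genes higher in Mrgprd-high cells that had a window, 1 held the letters. They stood in 9 of 62 genes higher in both strains (14.5%), in 34 of 234 genes lower in both (14.5%), in 12.4% of the 8418 genes of the count table with a window and in 14.05% of all 32851 windows. A match of these letters is a description of the window and says nothing of binding.

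The table held 21408678 reads for the Mrgprd-high C57BL/6 cells (median 572266 per cell, 21823 to 2204150) and 43207942 for the CAST/Ei cells (median 808706, 21012 to 2324202). The other naive cells were read somewhat deeper, with medians of 771646 and 1009822 reads. At an equal depth of 200000 reads the median number of genes with a read was 7539.5 and 7677 in the Mrgprd-high cells and 7611 and 7516 in the other naive cells of C57BL/6 and CAST/Ei. This left out 2 and 5 Mrgprd-high cells and 6 and 6 others that had fewer reads.

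A few of the Mrgprd-high cells stood apart from the rest. In C57BL/6 the cells labelled C57naive-6, C57naive-43 and C57naive-129 each held over 50% of all reads of 294, 150 and 599 genes out of 7977 genes at 10 CPM or more in the sum, and in CAST/Ei the cell Casnaive-16 did so for 140 of 8463 genes. Their Mrgprd levels, 152.7, 132.7, 117.96 and 249.4 CPM, were low for the class. C57naive-129 had 9448 CPM of Apoe, a gene of satellite glia, no read of Lpar3 or Mrgprb5, and 11 of the 26 measured non-peptidergic genes beside Mrgprd with 5 reads or more. C57naive-6 had 972 CPM and Casnaive-16 had 788 CPM of Flt1, a receptor of endothelial cells. These 4 cells stayed in the sums because the rule takes them, and values that move without them are given both ways.

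Signs of other cell types sat with low Mrgprd more widely. The summed level of the endothelial and vascular list (13 of 15 genes measured) reached 1000 CPM, or that of the satellite and Schwann cell list (14 of 15) 5000 CPM, in 5 of 8 C57BL/6 and 5 of 9 CAST/Ei cells with under 300 CPM of Mrgprd. Among cells with 300 CPM or more this held for 0 of 24 and 5 of 42. In the other naive cells it held for 61 of 100 in C57BL/6 and 25.2% in CAST/Ei. The summed satellite and Schwann cell level ran from 732 to 23846 CPM (median 1475) in Mrgprd-high C57BL/6 cells and from 79.5 to 91278 CPM (median 2985) in the others, and in CAST/Ei from 833 to 53810 (median 2205) and from 92.4 to 99245 (median 2236). The endothelial sum ran from 0 to 17260 CPM (median 36) against 0 to 13959.7 (median 397) in C57BL/6, and from 0 to 7932 (median 28.6) against 0 to 22073 (median 75.1) in CAST/Ei. No measured gene of these 2 lists was at 0 in every Mrgprd-high cell of either strain, and of the immune list only Cd68 was measured. Their part in the ratios below was not tested beyond leaving out cells. Of the satellite and Schwann cell list 3 were past 2-fold higher and 1 lower of 11 compared in C57BL/6, and 0 and 9 without the 4 cells; of the endothelial list 3 and 4 of 12, and 1 and 11 without them. The list of immediate early and injury genes moved likewise, from 3 lower of 22 to 18 lower of 22. In CAST/Ei leaving out its cell changed these counts by at most 2. Over all genes compared in C57BL/6, 6.56% were past 2-fold higher and 16.4% lower. Without the 4 cells it was 332 and 1900 of 9140 genes, so genes at large moved toward lower values as well.

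**Figure D2:**
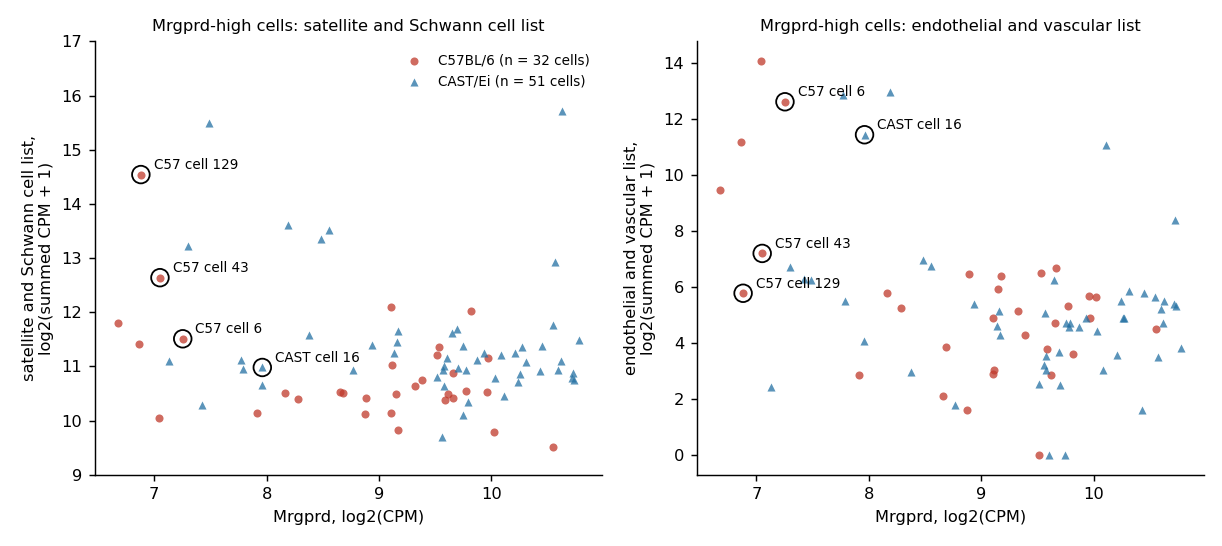
Summed CPM of the satellite and Schwann cell list (left) and of the endothelial and vascular list (right), as log2(summed CPM + 1), against Mrgprd as log2(CPM) in each Mrgprd-high cell; red circles are C57BL/6 and blue triangles CAST/Ei. The 4 ringed cells each held over 50% of the reads of at least 100 genes, and all lie below 300 CPM of Mrgprd.

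Of 9258 genes compared in C57BL/6, 607 (6.56%) exceeded 2-fold upward and 1517 (16.4%) downward in the sum of Mrgprd-high cells against that of the other naive cells. In CAST/Ei it was 361 (3.91%) and 717 (7.77%) of 9231 genes. Without the 4 cells the counts were 332 and 1900 of 9140 genes in C57BL/6 and 303 and 750 of 9183 in CAST/Ei. All ratios are of CPM + 1 on the log2 scale over genes with 10 CPM or more in either sum, and the interval given with a sum is the exact 95% Poisson interval, which covers counting error only. The median ratio of all genes was -0.22 in C57BL/6 and -0.05 in CAST/Ei. Scaling by the median of ratios instead of totals moved the C57BL/6 ratios by a median of 0.27 and those of CAST/Ei by a median of 0.07. In C57BL/6, 51.04% of the genes past 2-fold were then higher in place of 28.6%. Of the 8573 genes compared in both strains, 82 (0.956%) were past 2-fold higher in both, which is 17.01% of the 482 such genes in C57BL/6 and 29.3% of the 280 in CAST/Ei. Lower in both were 320 (3.73%), 25.2% of 1270 and 52.9% of 605.

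The non-peptidergic genes were higher in the class than in the other naive cells pooled. Their summed level lay closer to that of the cells with Mrgpra3 or Mrgprb4, more so in CAST/Ei, which need not hold for each gene. Of the non-peptidergic list beside Mrgprd, 16 of 25 compared genes were past 2-fold higher in C57BL/6 (median 1.54) and 10 of 26 in CAST/Ei (median 0.78), and none was past 2-fold lower. Lpar3, Mrgprb5, P2rx3, Grik1, Cd55, Ctxn3, Prkcq, Ptgdr and Otoa were among the 10 that passed in both strains. Plxnc1, Agtr1a, Synpr, Slc16a12, Plcb3 and Gna14 passed in C57BL/6 alone, which is no test of a difference between the strains. Without the 4 cells 19 of 25 and 11 of 26 passed, and the gene added in CAST/Ei was Synpr, at 1.04. Over all genes 6.56% and 3.91% were past 2-fold higher with all cells kept. The lowest ratio of the list in C57BL/6 was -0.998, and some of its genes passed downward under other settings. Without the 25% of cells with the highest satellite and Schwann cell sum, Gfra1 came to -1.10 in C57BL/6 and Agtr1a to -1.18 in CAST/Ei. Then 16 and 12 of the list were past 2-fold higher. Without cells that also passed for Mrgpra3, Mrgprb4 or Tac1, Gfra1 came to -1.24 and -1.03, with 16 and 11 past 2-fold higher. Summed over the list the class had 11392 CPM in C57BL/6 and 12682 CPM in CAST/Ei (cell medians 13698 and 13408). The cells with Mrgpra3 or Mrgprb4 at 100 CPM or more had 8944 and 11386 CPM (8886 and 11694), and those with high Tac1 1094 and 1725 CPM. The list as a whole therefore set the class apart from the latter far more than from the former. The list was written with earlier results of these data known, so its counts describe the cells and are no independent support for the label.

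Receptors came first among these genes. Lpar3 (chr3:146220961-146286214), a receptor for lysophosphatidic acid, ran from 0 to 356 CPM (median 175) over the Mrgprd-high C57BL/6 cells and from 0 to 788 CPM (median 173.8) over the CAST/Ei cells. The other naive cells had medians of 0 and reached 124.3 and 125.9 CPM, so single cells overlapped while the sums lay far apart. Lpar3 came to 158.9 CPM (153.6 to 164.3) against 10.4 (9.71 to 11.1) in C57BL/6, a log2 ratio of 3.81, and to 267 CPM (262 to 272) against 12.6 (11.97 to 13.2) in CAST/Ei, a ratio of 4.30. At least 5 Lpar3 reads were found in 26 of 32 and 40 of 51 Mrgprd-high cells and in 25 of 100 other C57BL/6 and 27.6% of other CAST/Ei cells. At equal depth these shares were 83.3% and 71.7% against 12.8% and 17.1%.

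Mrgprb5 (chr7:48168017-48168985), a Mas-related receptor of the same family as Mrgprd, was higher in the class than in the other cells pooled in both strains, at very different levels. In C57BL/6 it was not far above its level in the cells with Mrgpra3 or Mrgprb4. It ran from 0 to 1006 CPM (median 71.2) in Mrgprd-high C57BL/6 cells and from 0 to 1964 CPM (median 543) in CAST/Ei cells. The sums were 83.6 CPM (79.7 to 87.5) against 13.2 (12.5 to 13.98) and 763 CPM (755 to 772) against 146.01 (143.9 to 148.1), ratios of 2.57 and 2.38. The CAST/Ei level outside the class was therefore above the C57BL/6 level inside it. Among the other naive cells the gene sat mainly in those with Mrgpra3 or Mrgprb4 at 100 CPM or more, at 63.2 CPM in C57BL/6 and 375 CPM in CAST/Ei, against 0.593 and 49.3 CPM in cells with Th at 300 CPM or more.

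Lpar3 and Mrgprb5 were found together, each with 5 reads or more, in 23 of 32 and 38 of 51 Mrgprd-high cells. Of the other naive cells 2 of 100 in C57BL/6 held both, and 21.95% in CAST/Ei. Neither gene reached 5 reads in 5 of 32 Mrgprd-high C57BL/6 cells, whereas each of the 51 CAST/Ei cells had at least 1 of them.

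Other genes of the Mas-related family went other ways. Mrgpra3, the chloroquine receptor of itch neurons, came to 64.1 CPM in Mrgprd-high C57BL/6 cells against 241 in the others and to 121.8 against 482 CPM in CAST/Ei, ratios of -1.90 and -1.97. It was unevenly spread, with a median of 0.462 and 2.50 CPM and a top of 1258 and 1380 CPM. At 100 CPM or more it stood in 4 of 32 and 9 of 51 Mrgprd-high cells, and Mrgprb4 in 0 and 4. Mrgpra2a and Mrgpra2b had 46.9 and 58.95 CPM in Mrgprd-high C57BL/6 cells and 2.11 and 2.96 CPM in CAST/Ei cells, close to the other naive cells of each strain. Mrgpra2a and Mrgpra2b are near-identical copies, so reads may have been split or lost between them and each value is uncertain, as are those of Mrgpra1 and Mrgpra4.

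P2rx3, a channel opened by ATP, had medians of 182 and 390.2 CPM in the Mrgprd-high cells of C57BL/6 and CAST/Ei and of 17.6 and 39.3 CPM in the others. Its sums were 175 against 50.3 CPM and 398 against 152.7 CPM, ratios of 1.78 and 1.38. In CAST/Ei the cells with high Th also carried it, at 305 CPM, while those of C57BL/6 had 17.6 CPM. Trpc6, a cation channel of the TRP family, stood at 101.9 against 21.6 and 157.7 against 66.2 CPM (2.19 and 1.24), and Ano3, of the anoctamin family, at 859 against 209 and 689 against 234 CPM (2.03 and 1.55).

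Ion channels for heat, acid and irritants gave other values. Trpv1, the capsaicin receptor, came to 9.76 against 58.95 CPM in C57BL/6 and 25.3 against 64.3 CPM in CAST/Ei, ratios of -2.48 and -1.31, with a median of 0 in all 4 sets of cells. The acid-sensing channel gene Asic1 was at 0.187 against 15.9 and 1.44 against 16.2 CPM. Asic2 of the same family was not low, with 59.8 and 62.4 CPM (0.28 and 0.78) without the 4 cells. Asic3 then had 1.34 CPM in C57BL/6 (-3.79) and 5.84 CPM in CAST/Ei. Trpa1, the channel for mustard oil, was higher in the Mrgprd-high cells of C57BL/6 (160.8 against 35.3 CPM, ratio 2.15). In CAST/Ei it was not past 2-fold (276 against 310.5 CPM, ratio -0.17), and the other CAST/Ei cells had a median of 160.7 CPM and a top of 3521 CPM. Over the list of TRP, P2X, acid-sensing and mechanically gated channels, 6 were past 2-fold higher and 5 lower of 17 compared in C57BL/6, and 4 and 4 of 18 in CAST/Ei. The shares over all genes were 6.56% and 16.4%, then 3.91% and 7.77%. In C57BL/6, C57naive-129 held 67.1% of the Trpm3 reads, and the ratio of Trpm3 went from 1.87 to 0.61 without the 4 cells.

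Among the channels that carry the action potential, the values ran from near equal to far lower. Scn10a, Scn11a and Scn9a, the sodium channels of nociceptors, had ratios of 0.80, 0.74 and 0.18 in C57BL/6. Those of CAST/Ei were 0.79, 0.80 and 0.08. Without the 4 cells Scn10a and Scn11a came to 1.11 and 1.01 in C57BL/6, just past 2-fold. Scn1a and Scn3a, the former known from myelinated neurons, were past 2-fold lower in both strains (-3.26 and -1.67, then -3.26 and -1.36). Of the sodium, calcium and HCN channel list, 1 was past 2-fold higher and 8 lower of 21 compared in C57BL/6, and 0 and 5 of 21 in CAST/Ei. It was 4 and 9 in C57BL/6 without the 4 cells. The potassium channel list had 2 higher and 8 lower of 32, and 2 higher and 7 lower of 28. Of all genes 6.56% were higher and 16.4% lower in C57BL/6 and 3.91% and 7.77% in CAST/Ei, so the higher members of the potassium list came at about the share of all genes in C57BL/6. That list had 2 higher and 10 lower of 31 without the 4 cells.

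Kcnab1, a beta subunit of voltage-gated potassium channels, was the member of that list higher in both strains. It ran from 0 to 687 CPM (median 276) in Mrgprd-high C57BL/6 cells and from 0 to 794 CPM (median 242) in CAST/Ei cells, nearly the same levels. The sums were 240.1 against 80.3 CPM, a ratio of 1.57, and 262 against 10.9 CPM, a ratio of 4.47. In C57BL/6 the cells with high Th had 213 CPM of Kcnab1, and in CAST/Ei they had 15.5 CPM.

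The route from these receptors into the cell was represented as well. Gnaq, the G protein alpha subunit that couples receptors to phospholipase C, had medians of 892 and 977 CPM in Mrgprd-high cells against 244 and 458 CPM in the others (ratios 1.25 and 1.05). Prkcq, a protein kinase C, showed the sharper contrast. It ran from 0 to 366 CPM (median 132.9) in C57BL/6 and from 0 to 1041 CPM (median 170) in CAST/Ei, with sums of 123.1 against 10.9 CPM and 209 against 16.3 CPM, ratios of 3.38 and 3.60. Prkca (1.13 and 1.39) and Rgs7, a regulator of G protein signalling (1.91 and 2.10), were higher in both strains too. Plcb3, a phospholipase C, and Gna14, an alpha subunit of the Gq group, had C57BL/6 ratios of 1.21 and 1.54 and CAST/Ei ratios of 0.79 and 0.75. Over the list of G proteins, phospholipases C and protein kinases C, 9 were past 2-fold higher and 4 lower of 34 in C57BL/6 (median 0.26), and 6 and 4 of 32 in CAST/Ei (median 0.38), beside 6.56% and 3.91% of all genes higher and 16.4% and 7.77% lower. The C57BL/6 count was 8 and 6 without the 4 cells.

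**Figure D3:**
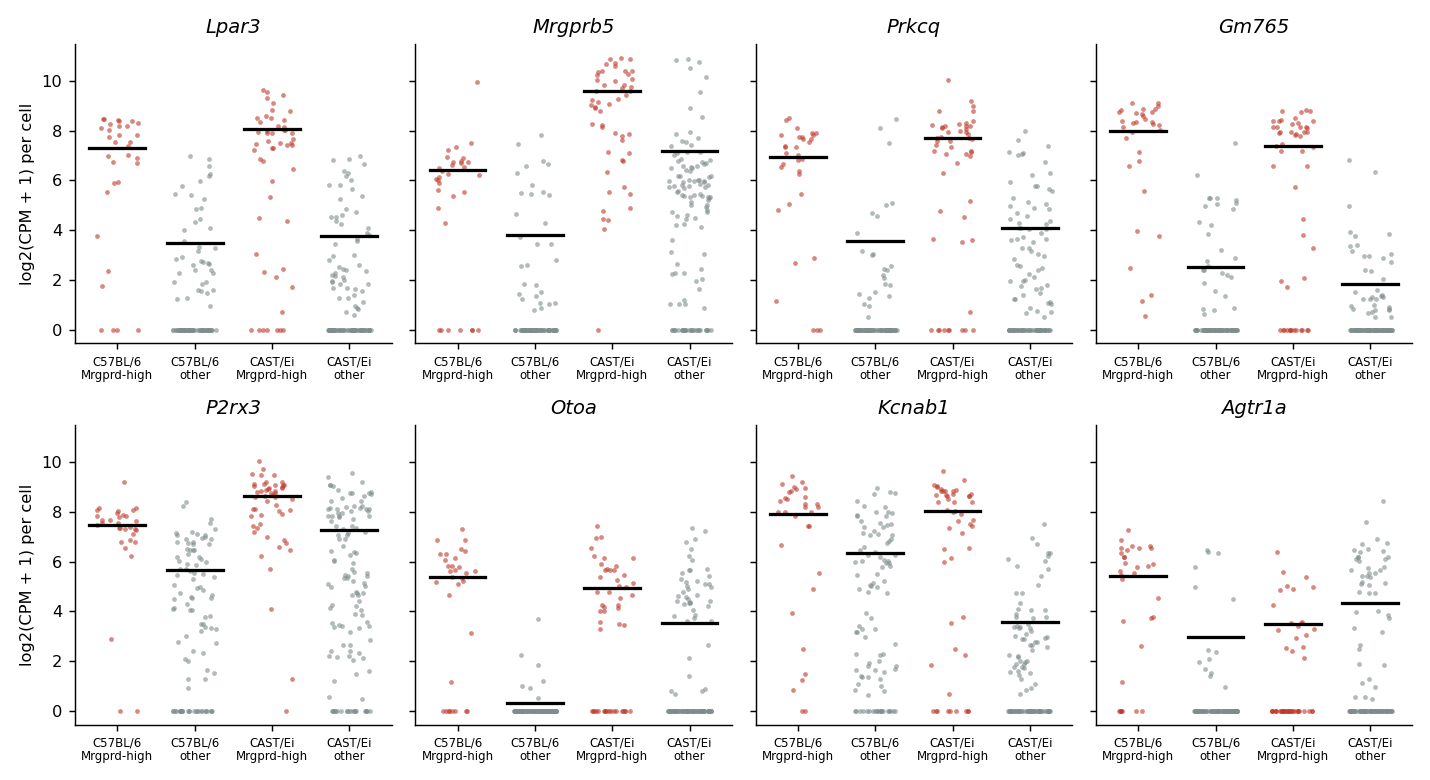
CPM of 8 genes in each naive cell, as log2(CPM + 1), for Mrgprd-high (red) and other (grey) cells of each strain; black bars are the CPM of the summed reads. Lpar3, Prkcq and Gm765 are high in most red cells and low in most grey cells of both strains, while the bar of Agtr1a is higher in red cells of C57BL/6 and in grey cells of CAST/Ei.

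Among the G protein-coupled receptors listed, 6 were past 2-fold higher and 12 lower of 28 compared in C57BL/6, and 4 and 13 of 26 in CAST/Ei, where all genes gave 6.56% and 16.4%, then 3.91% and 7.77%. These counts were the same without the 4 cells. Higher in both were Lpar3, Ptgdr and Htr4. Ptgdr, the receptor for prostaglandin D, had 182 against 61.8 CPM and 107.5 against 15.7 CPM (1.54 and 2.70), and Htr4, a serotonin receptor, 26.4 against 3.82 and 21.4 against 6.63 CPM (2.51 and 1.56). Lower in both were receptors known from other sensory neurons. The serotonin receptor gene Htr1d stood at 0.327 against 67.6 CPM and 0.532 against 117.8 CPM, and the neuropeptide Y receptor gene Npy2r at 0.888 against 54.9 and 13.8 against 132.7 CPM. The mu opioid receptor gene Oprm1 had 2.38 against 19.5 CPM (-2.60) and 0.833 against 8.55 CPM (-2.38), where the CAST/Ei sums were under the 10 CPM needed to count.

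Grik1, a kainate-type glutamate receptor subunit, was at 605 against 131.6 CPM and 762 against 208 CPM (2.19 and 1.87), and the cells with high Th held it too, at 364 and 495 CPM. Of surface proteins, Cd55, a regulator of complement, had 2552 against 455 CPM and 2727 against 1127 CPM (2.48 and 1.27). The CAST/Ei cells with Mrgpra3 or Mrgprb4 had 2553 CPM of Cd55, near the level of the class. Cd44, the hyaluronan receptor, had 1777 against 514 and 1340.5 against 364 CPM (1.79 and 1.88). Acpp, the phosphatase once used as the stain of non-peptidergic neurons, did not part the cells, at 655 against 521 CPM and 700.5 against 646 CPM (0.33 and 0.12).

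Among transcription factors, Runx1 had 638.5 CPM (628 to 649) against 304 in C57BL/6 and 254 CPM (249.7 to 259) against 150.96 in CAST/Ei, ratios of 1.07 and 0.75, with the CAST/Ei level lower in both sets of cells. Insm2, a zinc finger factor, was at 96.1 against 30.5 and 217 against 108.3 CPM (1.63 and 1.0, just under the threshold in CAST/Ei). Of the transcription factor list 3 were past 2-fold higher and 6 lower of 26 compared in C57BL/6, and 0 and 5 of 25 in CAST/Ei, beside 6.56% and 16.4%, then 3.91% and 7.77% of all genes. The counts were 2 and 8, then 1 and 6, without the 4 cells. Of 16 compared growth factor receptors 1 was past 2-fold higher and 5 lower in C57BL/6, 1 and 7 without the 4 cells, and 0 and 5 in CAST/Ei. Gfra3, the artemin receptor of peptidergic neurons, stood at 21.6 against 138.8 CPM and 19.5 against 295 CPM (-2.63 and -3.85), and the former was -4.73 without the 4 cells. Ret and its partner Gfra2 were not past 2-fold in either strain (0.55 and 0.29, then 0.11 and 0.43). Gfra2 in CAST/Ei came to 1.37 without the 25% of cells with the highest satellite and Schwann cell sum. Ngfr, the low-affinity neurotrophin receptor, was lower in both, at 17.19 against 78.1 and 14.3 against 68.2 CPM (-2.12 and -2.18, the former -3.45 without the 4 cells). Ntrk2 was higher in C57BL/6 (2.08) through C57naive-129, which held 96% of its reads, and the ratio without the 4 cells was -2.07.

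Most neuropeptide genes were lower in the class than in the other naive cells pooled. Of 15 compared peptide and granin genes, 9 were past 2-fold lower in each strain, with medians of -1.85 and -1.76, against a background of 16.4% and 7.77% of all genes. In C57BL/6 Penk and Scg3 were past 2-fold higher, and without the 4 cells it was 3 higher and 10 lower. Tac1, the precursor of substance P, had medians of 125.9 and 86.7 CPM in Mrgprd-high cells and tops of 1418 and 2570 CPM, below tops of 11329 and 13792 CPM in the others. Its sums were 334 against 1128 CPM and 207 against 1135 CPM, ratios of -1.75 and -2.45. Calca had 1277 against 4614 CPM (-1.85) and 2380 against 4394 CPM (-0.88), so calcitonin gene-related peptide reads were far from absent, and no Mrgprd-high cell was below 58.2 CPM. Calcb, its sister gene, was not past 2-fold (0.56 and 0.34). Adcyap1, the precursor of PACAP, had -3.36 and -1.76. Single cells gave another picture. The summed peptidergic list had a cell median of 2711 CPM against 1981 in C57BL/6 and 3885 against 4749 in CAST/Ei. Pooled, the class had 3235 and 4089 CPM, above cells with high Th (2084 and 1425). It lay below cells with high Tac1 (18792.5 and 21467) and those with Mrgpra3 or Mrgprb4 (9973 and 5924).

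Sst and Nppb, which encode peptides of the itch neurons, were near 0 in the class in C57BL/6. Sst, for somatostatin, came to 0.0934 CPM against 33.5 in C57BL/6 and 3.43 against 107.9 in CAST/Ei, and Nppb, for natriuretic polypeptide b, to 0.0934 against 65.6 and 4.95 against 164.5 CPM. Of the itch-type list 8 of 11 compared genes were past 2-fold lower in C57BL/6 and 8 of 12 in CAST/Ei, and 0 were higher. Without the 4 cells Nmb of that list was past 2-fold higher in C57BL/6, at 206.9 CPM (1.03). It had 348.6 CPM (0.54) in CAST/Ei. Of the peptidergic list 7 and 6 of 10 were past 2-fold lower (8 in C57BL/6 without the 4 cells). Over all genes 16.4% and 7.77% were lower, and 1900 of 9140 in C57BL/6 without the 4 cells. Gal, for galanin, went from -3.17 to -6.37 in C57BL/6 without them, and was at -2.34 in CAST/Ei. The C fibre mechanoreceptor list without Th had 6 of 8 lower in each strain. Without the 4 cells that list had 2 of 8 lower in C57BL/6, near the share of all genes. Its summed level was 679 against 1152 CPM and 930 against 1412 CPM in the others pooled. Among the others, cells with high Th had 3511 and 3978 CPM. By cell median the class lay above the others, at 560 against 297 CPM in C57BL/6 and 838 against 279 CPM in CAST/Ei. The list of large myelinated neurons had 5 lower and 1 higher of 13 in C57BL/6 and 8 lower of 14 in CAST/Ei, and 10 lower of 13 in C57BL/6 without the 4 cells. For Penk, the enkephalin precursor, the C57BL/6 ratio of 4.65 came from 1 cell, since only 1 of 32 cells had 5 reads, and in CAST/Ei the ratio was -4.60.

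**Figure D4:**
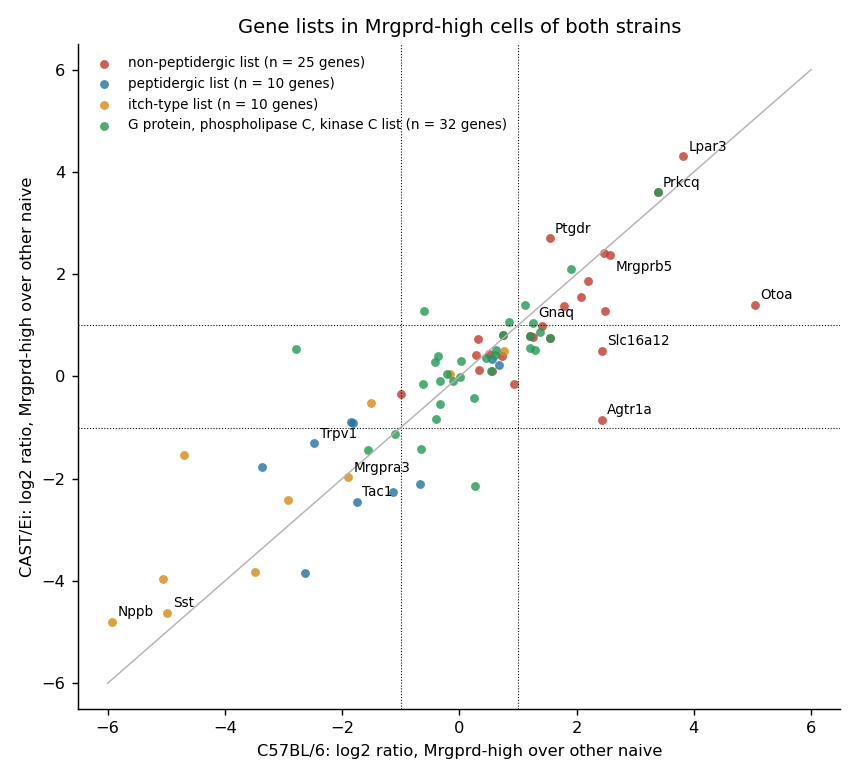
Log2 ratio of Mrgprd-high over other naive cells in C57BL/6 (x axis) and CAST/Ei (y axis) for genes of 4 lists that reached 10 CPM in both strains; dotted lines mark 2-fold and the grey line equal ratios. Most non-peptidergic genes lie to the upper right and most peptidergic and itch-type genes to the lower left. Exceptions include Calcb of the peptidergic list, and Agtr1a, Slc16a12 and Otoa are among the genes off the line.

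Genes of secretory granules and vesicle release gave mixed values. Scg2, a granin of dense-core vesicles, had 77.6 against 939 CPM and 154.9 against 735 CPM (-3.58 and -2.24), and Resp18, of the same granules, ratios of -2.63 and -2.24. In C57BL/6, 89% of the Resp18 reads lay in C57naive-129, and the ratio without the 4 cells was -5.23. Of the vesicle release list 3 were past 2-fold higher and 6 lower of 22 in C57BL/6, and 1 and 7 of 22 in CAST/Ei, beside 6.56% and 16.4%, then 3.91% and 7.77% of all genes. Leaving out the 4 cells gave 4 and 5, then 2 and 7. Rab27b, a small GTPase of secretory granules, was higher in both (403 against 121.8 and 569 against 211 CPM, 1.72 and 1.43), and Rab3b, another, lower in both (-3.56 and -3.26).

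Genes outside the lists were named by a fixed rule of size, the 15 with the largest ratio in the strain where it was nearer to 0, among genes at 50 CPM or more and with 5 reads in at least 50% of the higher cells. Gm765 (chr6:98238014-98342754), a predicted protein-coding gene, followed Mrgprd. It had medians of 312 and 167.2 CPM in Mrgprd-high cells and of 0 in the others. Its sums were 255.5 CPM (248.8 to 262) against 4.67 in C57BL/6 and 167.5 CPM (163.7 to 171.4) against 2.56 in CAST/Ei, ratios of 5.50 and 5.56, larger in each strain than that of any other gene the rule named apart from Mrgprd. It reached 5 reads in 27 of 32 and 33 of 51 Mrgprd-high cells and in 14 of 100 other C57BL/6 and 10.6% of other CAST/Ei cells.

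Further genes of that rule included Lpar3, Prkcq, Mrgprb5, Ptprt, Tspan12, Lgals3, Rgs7, Grik1, Cd44, Anks1b, Gnb4 and Ly86. Ptprt, a receptor tyrosine phosphatase, had 2.01 and 2.15, and cells with high Tac1 carried it as well, at 57.8 and 75.2 CPM. Tspan12, a tetraspanin, had 2.23 and 1.97, Gnb4, a G protein beta subunit, 2.00 and 1.70, Anks1b 1.95 and 1.72, and Ly86 1.59 and 1.70. For Lgals3, a galectin, C57naive-129 held 85% of the C57BL/6 reads, and its ratio of 2.45 became 0.13 without the 4 cells, against 1.95 and 2.01 in CAST/Ei. The other named genes stayed past 2-fold in both strains without them.

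The 15 named genes that were lower included Tac1, Adcyap1, Scg2, Resp18 and Ngfr, given above. Gpr64 (now called Adgrg2), an adhesion receptor, had 1.68 against 71.8 CPM and 7.38 against 70.1 CPM (-4.76 and -3.08). Hpcal1, a neuronal calcium sensor, had 5 reads or more in 98 of 100 other C57BL/6 and 91.1% of other CAST/Ei cells, and in 16 of 32 and 20 of 51 Mrgprd-high cells (-2.59 and -2.92). Tmem176b, Tagln3, Gpx3, Atp11a, Bean1, Ckmt1, Necab3 and the transcribed pseudogene Gm7271 completed the list, with ratios from -1.82 to -3.56 in C57BL/6 and from -1.78 to -3.25 in CAST/Ei. Without the 4 cells Tmem176b, Tagln3 and Ckmt1 were lower still in C57BL/6, at -4.26, -3.40 and -2.67, as was Gpx3 at -4.18. Necab3 in CAST/Ei came to -0.42 without the 25% of cells with the highest satellite and Schwann cell sum.

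Over single cells the genes most like Mrgprd were ranked by Spearman's rho across the naive cells of each strain, taking the lower of the 2 strains over 8147 genes. Gm765 (0.69 and 0.57) and Lpar3 (0.64 and 0.57) led, followed by Gnaq (0.57 and 0.52), and the next in rank included P2rx3 (0.50 and 0.53), Tspan5, Txn1, Cd44, Prkcq (0.65 and 0.46) and Rgs7. The cells of a strain share its animals and preparation, and these values are descriptions.

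Because Mrgprd chose the cells, its relation to other genes inside the class is only described. Over the 32 and 51 Mrgprd-high cells, rho with Mrgprd was 0.61 and 0.70 for Prkcq, 0.49 and 0.54 for Gm765, 0.41 and 0.54 for Lpar3 and 0.44 and 0.43 for Otoa, against 0.02 and 0.08 for the total of reads. With Mrgpra3 it was -0.33 and -0.49, negative in both strains, and with Tac1 -0.38 and 0.17. With Mrgprb4 rho was 0.06 and -0.12, but that gene reached at most 5.12 CPM in Mrgprd-high C57BL/6 cells, so its value there gives no direction. Prkcq reached 5 reads in 22 of 24 and 34 of 42 cells with 300 CPM or more of Mrgprd, and in 2 of 8 and 4 of 9 below. The median number of the 26 non-peptidergic genes with 5 reads was 24.5 and 24 above 300 CPM, 18 and 18 below, and 14 and 17 in the other naive cells. Cells that also passed for Mrgpra3 or Mrgprb4 at 100 CPM or for Tac1 at 1000 CPM made up 4 of 8 and 5 of 9 of the low cells and 1 of 24 and 6 of 42 of the high ones.

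The strains were then compared inside the class. Of 9109 genes, 1483 (16.3%) were past 2-fold higher and 1008 (11.1%) past it lower in Mrgprd-high cells of CAST/Ei than of C57BL/6, with a median of 0.21. Over the other naive cells it was 684 (7.19%) and 812 (8.54%) of 9507 genes, with a median of 0.02. Without the 4 cells the counts inside the class were 1590 and 495. Scaling by the median of ratios moved the ratios inside the class by a median of 0.23. After it, 43.2% of the genes past 2-fold were higher in CAST/Ei in place of 59.5%. Reads of CAST/Ei carry that strain's variants against the reference genome, which can lower or misplace counts, and their part was not tested.

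Most of the largest differences lay outside the class too. By a fixed rule the 12 most extreme genes in each direction were named, and in the other naive cells 12 of the 12 higher and 11 of the 12 lower genes were past 2-fold the same way. The exception was Lrrc4c, of which 88% of the C57BL/6 reads lay in 1 cell, and its ratio of -3.94 became -0.53 without the 4 cells. Sept11 kept a ratio of -2.50 in place of -3.96. Higher in CAST/Ei were Pla2g4e, a phospholipase A2, Tspan10, a tetraspanin, Plcd3, Serpina3h, Gad1, Gm14403, Mcc, Irak4, B3galnt1, Gm14322, 5031414D18Rik and Ptgr1. Pla2g4e had no read in the 32 C57BL/6 cells and 65.8 CPM in the CAST/Ei cells, at least 470-fold higher against a floor of 3 reads over the group (0.14 CPM). Tspan10 had none in any naive C57BL/6 cell and 57.5 CPM, at least 410-fold higher. Gad1, which makes the transmitter GABA, was at 79.8 CPM in CAST/Ei against 1.68, and at 83.9 against 0.222 CPM in the other cells.

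Lower in CAST/Ei were H2-T24, Cntn1, Dnase1l3, Cbx3, Pcbd1, Sept11, Lrrc4c, Mrgpra2b, Prune2, Ifit2, Fgf12 and Zfp780b. Prune2, one of the most abundant genes of these cells, ran from 652 to 31461 CPM (median 18499) in C57BL/6 and from 25.5 to 3320 CPM (median 876) in CAST/Ei, and its sums were 15458 and 1026 CPM, a ratio of -3.91. In the other naive cells it was -3.49. Fgf12, a partner of sodium channels, had 1510 and 128.1 CPM (-3.55, and -2.98 outside). H2-T24, a class I gene of a family of close copies, had 79.8 and 1.57 CPM, so misplaced reads are possible there.

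Some genes differed between strains inside the class in another way than outside it. B3galnt1, a glycosyltransferase, had a ratio of 4.45 inside and 1.01 outside. Mrgprd-high C57BL/6 cells had 6.63 CPM of it and the others 61.2 CPM. Cntn1, a cell adhesion molecule, was at -4.12 inside and -1.55 outside: Mrgprd-high CAST/Ei cells had 28.8 CPM, the others 180.2, and both C57BL/6 sets 516 and 531 CPM. Ifit2, an interferon-induced gene, had -3.87 and -1.36. These are values side by side, and the difference between ratios was not tested.

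Within the non-peptidergic list, 4 of 27 genes were past 2-fold higher in CAST/Ei Mrgprd-high cells (Mrgprb5, P2rx3, Gfra1 and Wnt2b) and 2 lower (Agtr1a and Slc16a12), beside 16.3% and 11.1% of all genes, so the list did not exceed the shares of all genes. Gfra1 came to 1.17, and to 0.91 without the 4 cells. P2rx3 came to 1.18, to 0.96 with Mrgprd at 200 CPM and to 0.95 with median-of-ratios scaling. Mrgprb5 led, with 3.18 inside the class and 3.37 outside. Agtr1a, an angiotensin receptor, ran from 0 to 154.8 CPM (median 46.9) in C57BL/6 and from 0 to 81.8 CPM (median 0) in CAST/Ei. Its sums were 41.6 against 6.90 CPM in the other C57BL/6 cells and 10.3 against 19.4 CPM in CAST/Ei, so the ratio to the other cells was 2.43 in one strain and -0.85 in the other. In CAST/Ei the cells with Mrgpra3 or Mrgprb4 held the most, 45.9 CPM, against 11.6 CPM in C57BL/6. Slc16a12, a transporter of the monocarboxylate family, had 71.7 and 17.6 CPM (-1.97) inside and 12.4 and 12.1 CPM outside.

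Otoa, for otoancorin, known from the inner ear, was rarely read outside the class in C57BL/6. It had 40.5 CPM against 0.256 there (5.05), and 5 reads in 21 of 32 Mrgprd-high cells against 1 of 100 others. In CAST/Ei it had 29.8 against 10.7 CPM (1.40), and the cells with Mrgpra3 or Mrgprb4 reached 31.2 CPM. The strain ratios of Otoa, Agtr1a, Trpa1 and Kcnab1 were -0.43, -1.92, 0.78 and 0.13 inside the class and 3.22, 1.36, 3.10 and -2.78 outside it. The mix of cells outside the class differed between the strains, and its part in these ratios was not tested.

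**Figure D5:**
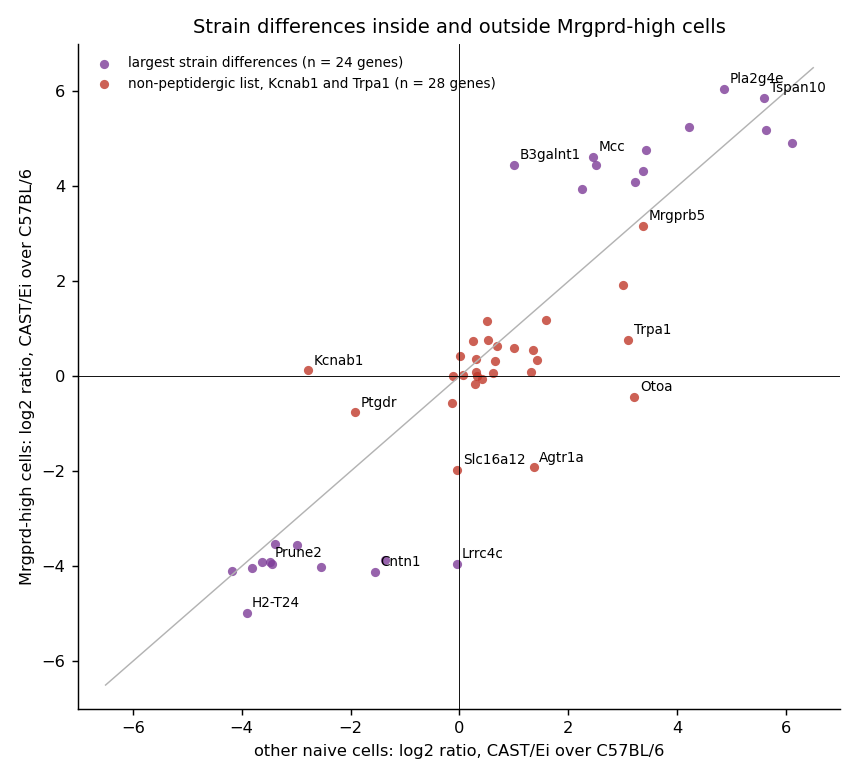
Log2 ratio of CAST/Ei over C57BL/6 in the other naive cells (x axis) and in the Mrgprd-high cells (y axis) for the 24 genes with the largest strain differences in the class (purple) and for the non-peptidergic list with Kcnab1 and Trpa1 (red); the grey line marks equal ratios. Most purple genes lie in the corners near the line, while Lrrc4c, Cntn1 and B3galnt1 lie nearer to 0 on the x axis.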

How the data were processed

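The deposited table held whole-number read counts per gene (11251 genes) and cell, made by the authors. Bowtie2, SAMtools and the mm10 build are named per the submitters' processing notes, with the counting tool, annotation and filters not given in these sources. Without molecular identifiers, amplified copies count as reads. The cells of a class were summed per strain and divided by their total reads (CPM), and ratios were taken as log2 of CPM + 1 over genes with 10 CPM or more in either sum, with 2-fold as the limit. With 1 sample per strain no test was run. Shares have exact Clopper-Pearson and sums exact Poisson 95% intervals, which cover counting error only. For equal depth each cell was thinned to 200000 reads. No doublet caller was run. The 15 genes named in each direction had 50 CPM or more and 5 reads in at least 50% of the cells on the higher side, ranked by the smaller of the 2 strains' ratios. The 12 strain genes in each direction were ranked by ratio. The members and lists were chosen with earlier results of these data known. Other thresholds, pseudocount, filter, scaling and left-out cells were tried, and leaving out the cells that dominate many genes was added after seeing the data. Leaving out members that also passed for Mrgpra3, Mrgprb4 or Tac1 was not planned either. Promoters came from RefSeq (GRCm38.p6). Python 3.11.15, numpy 2.4.6, pandas 2.3.3, scipy 1.17.1 and matplotlib 3.10.9 were used, and scripts were tested on simulated data. A few listed genes are not reported here.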

Additional observations from a re-analysis of the deposited data

Results flagged for a closer look

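For 7 listed genes the ratio of Mrgprd-high over other naive cells was past 2-fold in opposite directions in the strains, and the difference between the strains was not tested. Arc, an immediate early gene, had -1.38 in C57BL/6 and 1.69 in CAST/Ei, and Grm8, a glutamate receptor, 1.28 and -2.79. Egr2 had 3.12 and -1.28, Ntrk2 2.08 and -1.05, and Lrrc4c 1.67 and -2.22. Without the 4 cells that hold most reads of many genes, the C57BL/6 ratios of Egr2, Ntrk2 and Lrrc4c were -1.14, -2.07 and -1.68. Esam, an endothelial adhesion gene, had -5.91 and 1.38, and the latter was 0.23 without them. Penk had 4.65 and -4.60, with 5 reads or more in 1 of 32 Mrgprd-high C57BL/6 cells.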

How the results depend on the processing

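No paired analysis was possible because each strain is 1 sample, cell numbers only name cells and no result comes from a test. In C57BL/6 the 607 genes 2-fold higher in Mrgprd-high cells became 284 with Mrgprd at 200 CPM, 344 with a pseudocount of 10 CPM, 1003 with median-of-ratios scaling, 399 with the mean of single-cell CPM and 332 without the members that dominate many genes, and the 1517 lower became 712 with that pseudocount and 962 with that scaling. In CAST/Ei the 361 higher and 717 lower became about 1.6e+02 and 343 with the pseudocount. Between strains inside the class the 1483 higher became 695 with the pseudocount, and the 1008 lower became 436 with Mrgprd at 200 CPM, 659 with the pseudocount and 495 without the dominating members. Leaving out each member in turn gave 447 to 639 and 1496 to 1641 in C57BL/6, 303 to 395 and 711 to 764 in CAST/Ei, and 1421 to 1589 and 738 to 1069 between strains. Without members that also passed for Mrgpra3, Mrgprb4 or Tac1 it was 598 and 1736 in C57BL/6. In CAST/Ei that gave 518 and 866, and between strains 1640 and 970. Lgals3 in C57BL/6 changed sign, to -0.92 with Mrgprd at 200 CPM and -0.32 without the 25% of cells with the highest glial sum; 1 cell holds 85% of its reads. For the other changes the cause was not tested. Of 1179 values of named genes under these settings, 1147 kept direction and side of the limit, 8 fell below it, 22 passed it and 2 changed sign. The number of animals behind each strain is not given, so intervals show reading depth and not variation between mice.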

Other observations

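Few cultured cells met the same limits for Mrgprd and Th. After 48 h in culture 1 C57BL/6 cell (0.901%, exact Clopper-Pearson 95% interval 0.0228 to 4.92) and 3 of 99 CAST/Ei cells (3.03%, 0.629 to 8.60) did so, beside 24.2% and 29.3% of naive cells. Each condition of a strain is 1 sample, and a lower Mrgprd level per cell and a lower share of such cells cannot be told apart.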
